A study of Mus musculus with 298 samples.

Results

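Neurons of the mouse suprachiasmatic nucleus (SCN) labelled cFOS+ were compared with neurons labelled cFOS-, both recorded at night. The SCN is the hypothalamic nucleus that holds the master circadian clock. The cells were chosen by their titles, which give night, the cFOS label and the firing label; cells labelled depolarized were left out. The comparison held 155 cells, of which 75 were cFOS+ (41 labelled active and 34 labelled silent) and 80 were cFOS- (46 active and 34 silent). The labels give no strain, genotype, sex, age or treatment, and describe every cell as an SCN interneuron. All mice had been kept in equal periods of light and dark, and slices for the night cells were cut around lights-off. Each neuron was recorded for some minutes, after which its cytoplasm was drawn into the patch pipette and sequenced. The rest of the series was 127 day cells with the same labels, 14 depolarized cells and a pair of near copies. Several cells could come from 1 slice, and no label ties a cell to an animal or a slice. The sources used here do not say how cells received the cFOS label.

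Fos is the standard marker of recent neuronal activation. Calcium and cAMP signals activate the transcription factor CREB, which binds cAMP response elements in the promoters of immediate early genes and starts their transcription within minutes. The Fos protein then pairs with Jun proteins to form the AP-1 factor. In the SCN, light and electrical activity induce Fos and the clock gene Per1, while the peptides VIP and AVP couple the neurons to each other and carry timing signals out of the nucleus.

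Cells are not replicates of a condition, and with no animal named each label group is 1 sample. No difference below was therefore tested, and none has a replicate check. Levels are CPM, the reads of a gene scaled to a common library total, summed over the cells of a group so that deeply read cells weigh more, with exact Poisson 95% intervals that cover counting error only. Ratios are log2 of (CPM + 1) in cFOS+ over (CPM + 1) in cFOS- cells, which understates the ratio of weakly expressed genes. A cell counted as expressing a gene when it held at least 10 reads of it after all cells had been thinned to 3000000 reads, a depth below that of every cell. Shares of cells have exact Clopper-Pearson 95% intervals, which treat the cells as independent draws.

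Read depth did not separate the groups. The night cells held 3187057 to 25535298 reads, with medians of 6404822 in cFOS+ and 6173405.5 in cFOS- cells, and 3597 and 3604.5 genes with 10 thinned reads at the median. Cells numbered S70 and S71, which carry opposite cFOS labels, had nearly the same profile (correlation across genes of log2 (CPM + 1) 0.9995, against 0.636 for the next pair of night cells) and were left out. Neuron markers were present in both groups: Snap25, a synaptic vesicle fusion protein, was detected in 74 of 75 cFOS+ cells and in 76 of 80 cFOS- cells, and the GABA-synthesizing enzyme gene Gad1 in 66 and 68. RNA of microglia, the immune cells of the brain, was also present and was unequal between the labels. At least 100 CPM of 14 summed microglia markers were found in 19 of 75 cFOS+ cells (25.3%, interval 15.99 to 36.7%) and in 33 of 80 cFOS- cells (41.3%, interval 30.4 to 52.8%). The summed markers ran from 0 to 8538 CPM per cFOS+ cell with a median of 2.43, and from 0 to 37215 CPM per cFOS- cell with a median of 35.2. None of the 14 markers was at 0 in either group. Results are therefore also given for the 56 cFOS+ and 47 cFOS- cells below that level.

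Across all genes the groups were close, with a median log2 ratio of -0.05 over 11205 genes at an average of at least 5 CPM. Among 9846 genes at an average of at least 10 CPM, 643 (6.53%) were at least 2-fold higher in cFOS+ cells and 894 (9.08%) at least 2-fold lower. When the cells were split by firing, the direction was the same in active and in silent cells for 50.3% of the genes. In both firing classes, 2.44% of the genes were at least 2-fold higher in cFOS+ cells and 3.51% at least 2-fold lower, while 5.42% were at least 2-fold apart in opposite directions.

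The pooled level of Fos RNA was not higher in the cells labelled cFOS+. Fos (chromosome 12, 85473890 to 85477273, GRCm38) stood at 1598 CPM in cFOS+ cells (interval 1594 to 1601) and at 2441 CPM in cFOS- cells (interval 2437 to 2445), a log2 ratio of -0.61. Single cells ran from 0 to 9749 CPM with a median of 1079 in cFOS+ cells, and from 0 to 15716 CPM with a median of 1328 in cFOS- cells. The ranges overlapped, and the highest cFOS- cells lay above every cFOS+ cell. Fos was detected in 67 of 75 cFOS+ cells (interval 80.1 to 95.3%) and in 67 of 80 cFOS- cells (interval 73.8 to 91.1%). The detected share was 95.1% in cFOS+ and 84.8% in cFOS- active cells, and 82.4% under both labels among silent cells. Among active cells the medians were 1037 CPM in cFOS+ and 2281 CPM in cFOS- cells, with a pooled log2 ratio of -0.73. Among silent cells they were 1093 CPM in cFOS+ and 889 CPM in cFOS- cells, so that the medians ran in one direction and the pooled ratio, -0.42, in the other. Without the cells that carried microglia markers, the pooled ratio was -0.21, with cell medians of 1102 CPM in cFOS+ and 1208 CPM in cFOS- cells. Among the cells with those markers, the medians were 1037 CPM in the 19 cFOS+ and 2237 CPM in the 33 cFOS- cells.

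**Figure D1:**
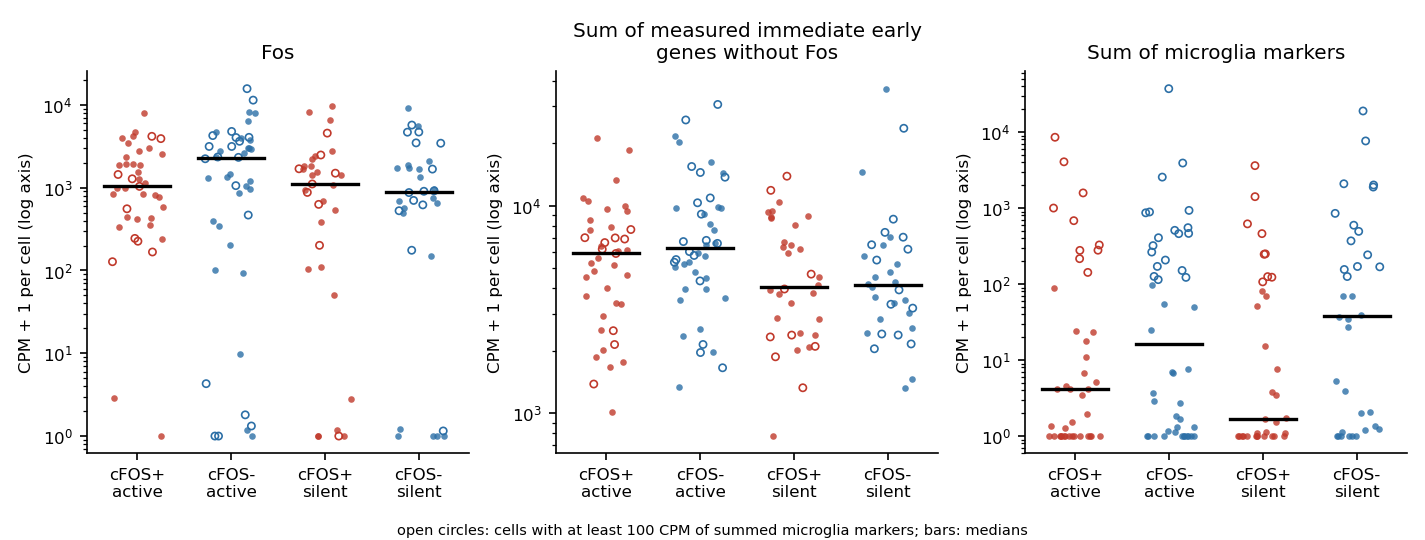
Each point is 1 night cell, plotted as CPM + 1 on a log axis for Fos (left), the sum of the measured immediate early genes other than Fos (middle) and the sum of the microglia markers (right), by label and firing. Open circles are cells with at least 100 CPM of microglia markers and bars are medians; the Fos ranges of cFOS+ and cFOS- cells overlap, and open circles are more frequent among cFOS- cells (33 of 80) than among cFOS+ cells (19 of 75).

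The other activity-induced immediate early genes leaned the same way as Fos. Of 41 listed genes, 36 were measured at an average of at least 5 CPM, and 9 of these were higher and 27 lower in cFOS+ cells, whereas 47.1% of all genes at that level were higher. None was at least 2-fold higher and 13 were at least 2-fold lower, against 7.92% and 11.1% of all genes. The list's median log2 ratio was -0.89, beside -0.05 for all genes, and it was -0.78 among active and -0.82 among silent cells. In both firing classes 26 genes were lower and 4 were higher. Of all genes at an average of at least 10 CPM, 50.3% had the same direction in both classes. The share of expressing cells was lower in cFOS+ cells for 28 genes and higher for 8, a count that was not made over all genes. The summed level per cell differed far less: its median was 5195 CPM in cFOS+ cells, which ran from 774 to 21140 CPM, and 5404 CPM in cFOS- cells, which ran from 1324 to 36552 CPM. The upper quartiles were 7753 CPM in cFOS+ and 8257 CPM in cFOS- cells.

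Between cells with and without microglia markers, the summed immediate early genes differed in opposite directions in cFOS- and cFOS+ cells. The part of microglia RNA in the list's difference was not tested. Among cFOS- cells, the median of the summed immediate early genes was 6158 CPM in the 33 cells with microglia markers and 4794 CPM in the 47 without them. Among cFOS+ cells it was 4670 CPM in the 19 cells with markers and 5252 CPM in the 56 without them. In cells without the markers, 8 of 35 measured genes were higher in cFOS+ cells (background 46.8%). The list's median log2 ratio was -0.43 there, beside -0.04 for all genes. At least 2-fold higher were 2 genes (background 11.2%), and at least 2-fold lower were 5 (background 14.7%). The list still leaned lower there by count and median ratio, but members at least 2-fold lower were no more frequent than among all genes. The summed level per cell ran the other way in these cells, with medians of 5252 CPM in cFOS+ and 4794 CPM in cFOS- cells. Among the active ones the medians were 5309 CPM in cFOS+ and 5737 CPM in cFOS- cells, and among the silent ones 4541 and 4124 CPM.

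Among the transcription factors of the list, the orphan nuclear receptor gene Nr4a3 had the lowest ratio. It stood at 1.55 CPM in cFOS+ cells (interval 1.44 to 1.66) and at 34.3 CPM in cFOS- cells (interval 33.8 to 34.8), a log2 ratio of -3.79, with single-cell maxima of 26.1 and 703 CPM and medians of 0 in both groups. It was detected in 7 of 75 cFOS+ and 17 of 80 cFOS- cells. Its ratio was -3.31 among active cells, -4.28 among silent cells and -3.81 without the cells with microglia markers. Klf4, a zinc-finger factor, stood at 5.47 CPM in cFOS+ and 35.3 CPM in cFOS- cells (log2 ratio -2.49), and Maff, a small basic leucine zipper factor, at 2.67 and 12.6 CPM (-1.89). Ier2, a nuclear immediate early gene, stood at 39.6 CPM in cFOS+ and 143 CPM in cFOS- cells (-1.82). The related receptor gene Nr4a1 was at 26.98 CPM in cFOS+ and 88.0 CPM in cFOS- cells (-1.67) and was detected in 15 and 24 cells. Jun, the partner of Fos in AP-1, was at 180.4 CPM in cFOS+ and 448.9 CPM in cFOS- cells (-1.31), with cell medians of 12.8 and 80.1 CPM. Junb was at 244 and 478 CPM (-0.97) and Fosb at 82.2 and 152 CPM (-0.88). All of these were lower in cFOS+ cells in both firing classes.

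Egr1, the most abundant member of the list, did not share that pattern. It stood at 1795 CPM in cFOS+ and 1701 CPM in cFOS- cells (log2 ratio 0.08), with cell medians of 1242 and 932 CPM, and was detected in 69 of 75 cFOS+ and 72 of 80 cFOS- cells. Its relatives Egr2 (-1.51) and Egr4 (-1.20) were lower in cFOS+ cells. Npas4, a neuron-specific activity-dependent factor, was near parity at 11.9 CPM in cFOS+ and 11.6 CPM in cFOS- cells. Klf6 was higher, with 180.8 CPM in cFOS+ and 114 CPM in cFOS- cells (0.67) and detection in 38 and 26 cells.

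Among the induced effectors, the synaptic gene Arc stood at 151 CPM in cFOS+ and 367 CPM in cFOS- cells (log2 ratio -1.28) and was detected in 22 and 26 cells. The phosphatase gene Dusp1, which switches off MAP kinases, stood at 625 CPM in cFOS+ and 1171 CPM in cFOS- cells (-0.90), with cell maxima of 4784 and 19714 CPM. The antiproliferative gene Btg2 was at 125.1 and 278.6 CPM (-1.15). The clock gene Per1, which light induces in the SCN, was at 30.4 CPM in cFOS+ and 69.2 CPM in cFOS- cells (-1.16) and was detected in 34 and 44 cells. Vgf, a secreted activity-induced precursor, went against the list: it stood at 262.3 CPM in cFOS+ and 158 CPM in cFOS- cells (0.73), with cell medians of 201 and 113 CPM, and was higher in both firing classes. Bdnf, a neurotrophin gene, was detected in 7 cFOS+ and 4 cFOS- cells and had opposite signs by firing, -3.61 among active cells and 2.87 among silent cells. Apart from Nr4a3, Klf4, Ier2, Maff and Egr1, the members named were chosen after their values were seen.

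**Figure D2:**
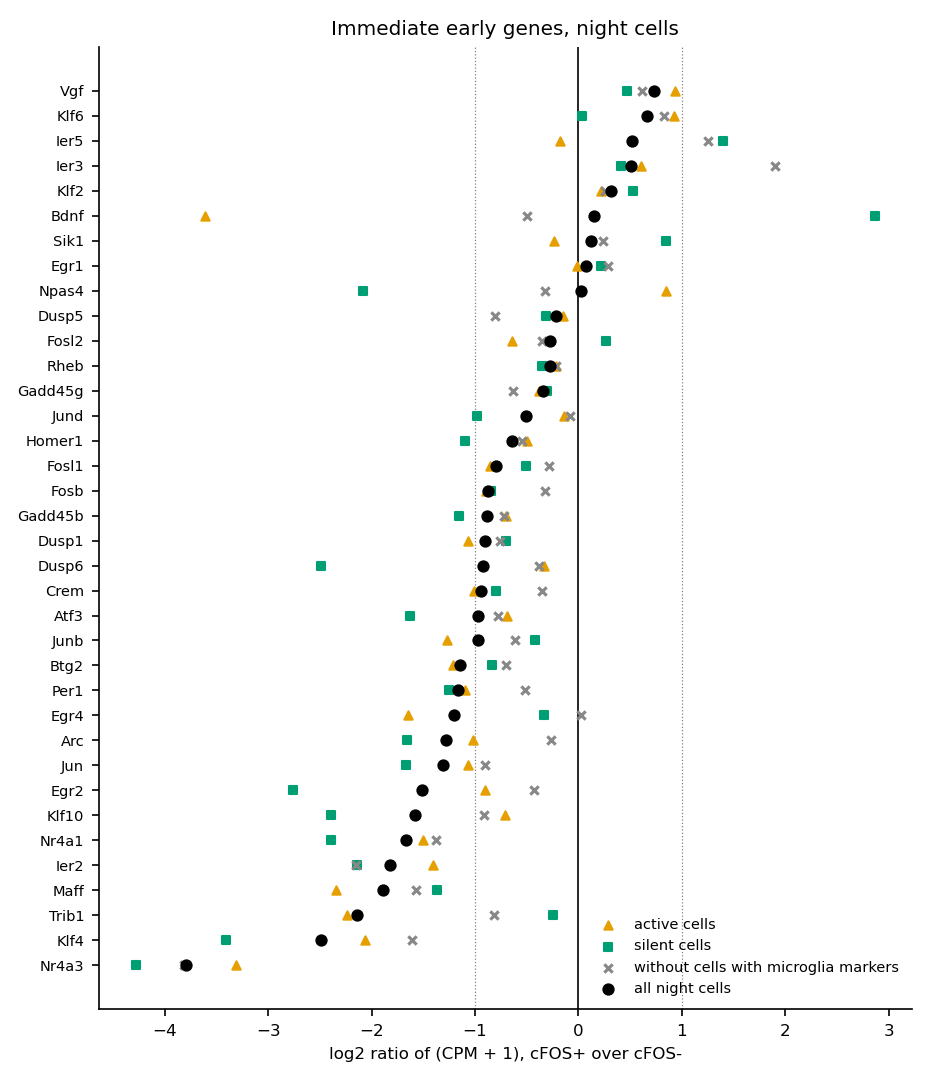
Log2 ratios of (CPM + 1), cFOS+ over cFOS- cells, for the measured immediate early genes other than Fos, pooled (black circles), among active cells (triangles), among silent cells (squares) and without cells with microglia markers (crosses). Dotted lines mark 2-fold differences; 27 of 36 black circles lie left of 0, Nr4a3 lies lowest at -3.79, and no black circle reaches 2-fold on the right.

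The promoters of these genes are shown because the cAMP response element is the element through which CREB acts on immediate early genes and on several peptide genes. The 200 bases before the RefSeq start (GRCm38.p6) follow 5′ to 3′ on the strand of the gene, with capitals marking TGACGTCA, the full element, and TGACG or its complement CGTCA, the partial element. The windows are chr12:85473690-85473889 (plus strand) for Fos, chr4:48045105-48045304 (plus strand) for Nr4a3, chr1:134079156-134079355 (minus strand) for Btg2, chr17:26508473-26508672 (minus strand) for Dusp1, chr10:5639018-5639217 (plus strand) for Vip, chr16:23890845-23891044 (minus strand) for Sst and chr13:99900684-99900883 (minus strand) for Cartpt.
Fos: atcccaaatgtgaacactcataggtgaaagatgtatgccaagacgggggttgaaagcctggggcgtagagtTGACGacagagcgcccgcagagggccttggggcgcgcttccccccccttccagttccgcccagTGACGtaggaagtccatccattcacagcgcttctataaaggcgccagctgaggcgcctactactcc
Nr4a3: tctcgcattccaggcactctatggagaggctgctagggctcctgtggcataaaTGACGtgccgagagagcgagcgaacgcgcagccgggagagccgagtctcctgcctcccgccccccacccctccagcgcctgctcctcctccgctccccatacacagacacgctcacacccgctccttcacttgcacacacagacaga
Btg2: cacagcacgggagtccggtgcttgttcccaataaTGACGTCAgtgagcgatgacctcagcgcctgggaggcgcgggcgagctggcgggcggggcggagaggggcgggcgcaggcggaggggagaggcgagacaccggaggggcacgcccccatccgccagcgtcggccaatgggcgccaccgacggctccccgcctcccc
Dusp1: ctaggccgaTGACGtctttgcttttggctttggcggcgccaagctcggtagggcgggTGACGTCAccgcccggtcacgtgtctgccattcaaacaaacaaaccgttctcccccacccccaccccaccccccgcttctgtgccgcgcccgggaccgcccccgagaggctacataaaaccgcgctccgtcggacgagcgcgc
Vip: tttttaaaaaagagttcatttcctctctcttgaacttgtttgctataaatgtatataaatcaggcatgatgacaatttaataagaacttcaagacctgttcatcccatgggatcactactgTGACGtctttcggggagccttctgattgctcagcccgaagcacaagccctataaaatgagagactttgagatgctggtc
Sst: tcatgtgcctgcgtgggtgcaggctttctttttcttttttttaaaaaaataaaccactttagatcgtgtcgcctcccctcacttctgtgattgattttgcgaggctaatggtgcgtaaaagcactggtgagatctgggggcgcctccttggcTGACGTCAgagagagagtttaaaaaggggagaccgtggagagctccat
Cartpt: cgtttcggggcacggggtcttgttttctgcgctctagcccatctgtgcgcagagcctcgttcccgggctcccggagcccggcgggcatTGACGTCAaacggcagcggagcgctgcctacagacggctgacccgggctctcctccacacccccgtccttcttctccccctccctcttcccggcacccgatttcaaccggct
The letters TGACGTCA stood in Btg2 and, 143 bases before the start, in Dusp1, both lower in cFOS+ cells. They stood 48 bases before the start in Sst and 112 bases before it in Cartpt, both higher in cFOS+ cells. Both strands were searched in the 250 bases before each start. The partial element was found in 17.8% of 32851 RefSeq windows and the full element in 1.55%. Of the immediate early list, 27 genes had 41 windows, of which 22 held the partial and 3 the full element; of the peptide list, 14 genes had 16 windows, of which 9 held the partial and 2 the full element. Over all genes at an average of at least 5 CPM, those with a full element had a median log2 ratio of -0.12 and the 8216 without it -0.05. A match is a description of the letters and not a binding site.

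Neuropeptide precursor genes were the list with the highest median log2 ratio, 0.55, and 11 of 17 measured members (22 listed) were higher in cFOS+ cells, against 47.1% of all genes. Of the 17, 7 were at least 2-fold higher and 2 at least 2-fold lower, against 7.92% and 11.1% of all genes. The median was 0.88 among active and 0.43 among silent cells, and 1.33 with 13 of 17 higher among cells without microglia markers (background 46.8%). The share of expressing cells did not follow the levels, being higher in cFOS+ cells for 7 genes and lower for 10. The median difference in share was -0.42 percentage points. That count was not made over all genes, so no direction is read from it. The pooled levels of peptide genes rested on few cells with very high values.

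Vip, which encodes vasoactive intestinal peptide of the light-receiving SCN core, stood at 4263 CPM in cFOS+ cells (interval 4257 to 4268) and 1808 CPM in cFOS- cells (interval 1805 to 1812), a log2 ratio of 1.24. The median cell of both groups held 0 CPM, and the highest held 58224 CPM in cFOS+ and 52743 CPM in cFOS- cells. At least 100 CPM were reached by 17 of 75 cFOS+ cells (22.7%, interval 13.8 to 33.8%) and 13 of 80 cFOS- cells (16.3%, interval 8.95 to 26.2%), and the intervals overlapped widely. Among active cells the numbers were 12 of 41 and 7 of 46, and among silent cells 5 of 34 and 6 of 34. The highest cell gave 24.2% of the Vip reads in cFOS+ and 35.5% in cFOS- cells. Where the cells were split at the median of the numbers in their titles, the ratio was 4.08 in the lower-numbered cells and -0.40 in the higher-numbered cells, so the direction did not hold in both parts. The sources used here do not say what the numbers stand for.

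Avp, the precursor of vasopressin in the SCN shell, stood at 1496 CPM in cFOS+ and 965 CPM in cFOS- cells (log2 ratio 0.63). It reached 100 CPM in 24 of 75 cFOS+ and 27 of 80 cFOS- cells, so about the same share of cells carried it, with maxima of 22598 and 6830 CPM. Nms, encoding neuromedin S, stood at 337.6 CPM in cFOS+ and 230.6 CPM in cFOS- cells (0.55) and reached 100 CPM in 28 and 25 cells. Sst, encoding somatostatin, stood at 484 CPM in cFOS+ and 155 CPM in cFOS- cells (1.64), with 7 and 6 cells at 100 CPM. Cartpt, the precursor of CART peptides, stood at 279.4 CPM in cFOS+ and 40.8 CPM in cFOS- cells (2.75), although 5 cFOS+ and 8 cFOS- cells reached 100 CPM. Its highest cFOS+ cell gave 64.95% of the reads of its group. Tac1, the substance P precursor, stood at 189.2 CPM in cFOS+ and 0.320 CPM in cFOS- cells; 1 cell gave 97.9% of the cFOS+ reads.

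Several peptide genes were lower in cFOS+ cells. Cck, encoding cholecystokinin, stood at 7.75 CPM in cFOS+ and 85.4 CPM in cFOS- cells (log2 ratio -3.30), with 2 and 5 cells at 100 CPM and maxima of 186 and 7582 CPM. Its ratio was -2.34 without the highest cell of each group. Penk, the enkephalin precursor, stood at 241.3 CPM in cFOS+ and 419.02 CPM in cFOS- cells (-0.79), while 20 cFOS+ and 17 cFOS- cells reached 100 CPM. Grp, encoding gastrin-releasing peptide of the SCN core, stood at 31.3 CPM in cFOS+ and 68.8 CPM in cFOS- cells (-1.11), and its ratio was 3.18 without the cells with microglia markers. In this list Tac1, Cck, Cartpt and Sst were taken by rank and Vip and Avp by rule; the rest were chosen after their values were seen.

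**Figure D3:**
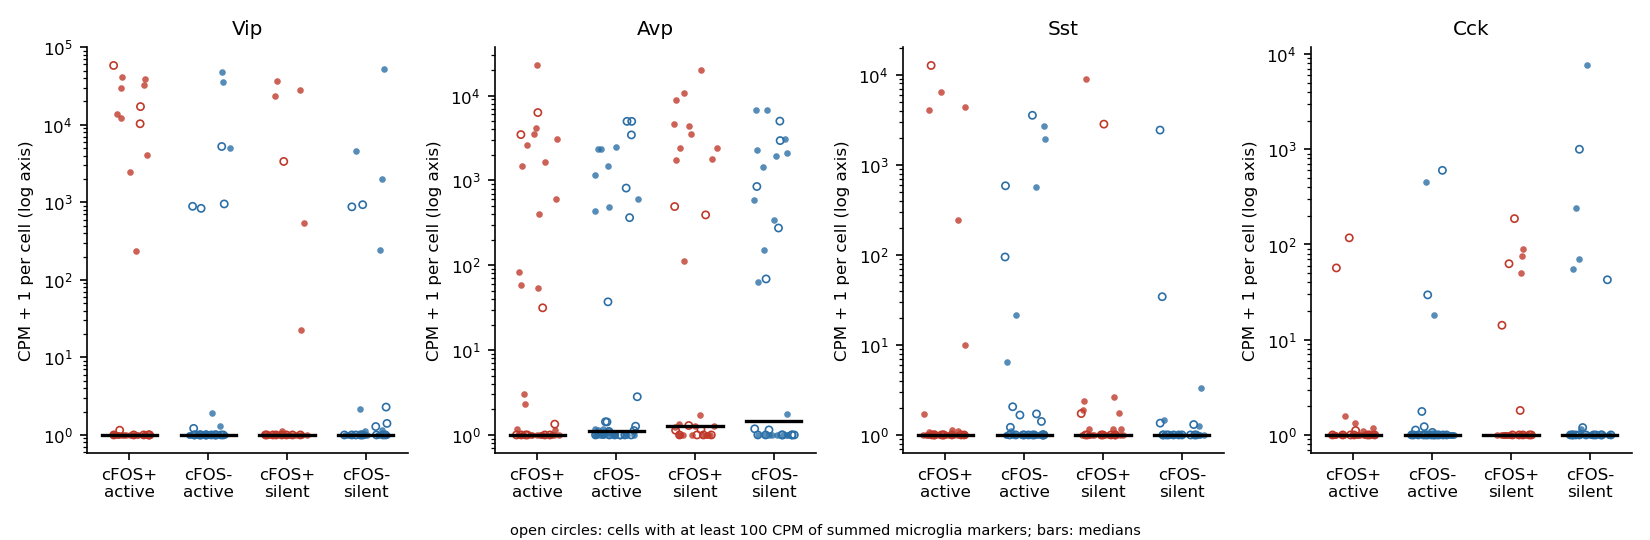
Each point is 1 night cell, plotted as CPM + 1 on a log axis for Vip, Avp, Sst and Cck, by label and firing; open circles are cells with at least 100 CPM of microglia markers and bars are medians. In every panel most cells lie at the bottom and a minority carries the transcript, such as 17 of 75 cFOS+ and 13 of 80 cFOS- cells at 100 CPM or more of Vip.

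Genes of the respiratory chain were slightly higher in cFOS+ cells. All 9 measured protein genes of the mitochondrial genome (13 listed) were higher, with a median log2 ratio of 0.49, and so were 39 of 46 nuclear oxidative phosphorylation genes, with a median of 0.23 and none at 2-fold, against 47.1% of all genes higher. The same medians were 0.79 and 0.36 among active cells, and 0.17 and 0.07 among silent cells, where 30 of the 46 nuclear genes were higher (background 50.6%). Without the cells with microglia markers 36 of 46 nuclear genes were higher, with a median of 0.28 (background 46.8%). mt-Nd5 stood at 636.4 CPM in cFOS+ and 338.8 CPM in cFOS- cells (0.91) and mt-Nd1 at 1787 and 1145 CPM (0.64); both encode subunits of complex I. Cox6a1, a subunit of cytochrome c oxidase, stood at 211 CPM in cFOS+ and 110 CPM in cFOS- cells (0.93), with cell medians of 140 and 79.7 CPM. Ndufa4 stood at 289.3 CPM in cFOS+ and 195.9 CPM in cFOS- cells (0.56). The summed nuclear genes had cell medians of 10648 CPM in cFOS+ and 9911 CPM in cFOS- cells, and among active cells of 10730 and 9416 CPM. Among silent cells the medians ran the other way, with 10507 CPM in cFOS+ and 11357 CPM in cFOS- cells, and so did those of the summed mitochondrially encoded genes, with 3841 CPM in cFOS+ and 4549 CPM in cFOS- cells. Over all cells the mitochondrially encoded sums had medians of 4460 CPM in cFOS+ and 3788 CPM in cFOS- cells. Splitting the cells by number lowered the count to 27 of 46, with a median of 0.03, in the lower-numbered cells.

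Microglia markers were lower in cFOS+ cells for all 13 measured genes, 11 of them at least 2-fold, with a median log2 ratio of -2.03 (active -1.50, silent -2.59). Of all genes, 47.1% were higher and 11.1% at least 2-fold lower. P2ry12, a purinergic receptor that defines resting microglia, had 1 read in cFOS+ cells and 26.2 CPM in cFOS- cells, where 6 of 80 cells expressed it. Cx3cr1, the fractalkine receptor, stood at 0.0583 CPM in cFOS+ and 17.97 CPM in cFOS- cells (-4.16). Ctss, a lysosomal protease, stood at 39.6 CPM in cFOS+ and 231.9 CPM in cFOS- cells (-2.52) and was detected in 7 and 10 cells. Tyrobp, an immune adaptor, was the least apart, at 46.2 and 69.5 CPM (-0.58). Of other cell types, 5 of 10 astrocyte markers and 2 of 6 oligodendrocyte markers were higher in cFOS+ cells, with medians of -0.24 and -0.53, and 1 of 2 endothelial and 1 of 2 ependymal markers. Without the cells with microglia markers, 2 of 10 astrocyte markers were higher (background 46.8%) and 6 were at least 2-fold lower (background 14.7%), with a median of -1.13. The oligodendrocyte markers had a median of -1.48 there. For neurons, 9 of 13 markers were higher over all night cells, with a median of 0.18. Without the cells with microglia markers, 10 of 13 were higher, with a median of 0.24. In pooled cells, fewer cells with a transcript and less of it per cell give the same level, which is why cell counts are given beside the levels.

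Clock genes showed no common direction. Of 24 genes, 9 were higher in cFOS+ cells and the median log2 ratio was -0.18. Of all genes, 47.1% were higher and 11.1% at least 2-fold lower. Besides Per1, the only one at least 2-fold lower, the repressor genes Nfil3 (61.97 CPM in cFOS+ and 107 CPM in cFOS- cells, -0.78) and Nr1d2 (57.6 and 95.3 CPM, -0.72) were lower in both firing classes. Per3 was higher in both, at 85.5 CPM in cFOS+ and 57.3 CPM in cFOS- cells (0.57). Cry2, the most abundant member, stood at 329.3 CPM in cFOS+ and 395.97 CPM in cFOS- cells (-0.27). The activator gene Arntl was at 260.4 and 204.7 CPM (0.35), and Per2, another light-responsive period gene, at 238.9 and 301.6 CPM (-0.34).

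Peptide receptor genes had a median log2 ratio of -0.01 with 6 of 13 measured members higher in cFOS+ cells, near the 47.1% of all genes. Their extremes were receptors carried by few cells. Avpr1a, the vasopressin receptor of the SCN, stood at 0.216 CPM in cFOS+ and 29.8 CPM in cFOS- cells (-4.66), and was detected in 1 of 75 cFOS+ and 8 of 80 cFOS- cells. Tacr1, the substance P receptor, had 0 reads in cFOS+ cells, which allows up to 0.00583 CPM by counting alone, and 15.1 CPM in cFOS- cells, where 4 of 80 cells expressed it. The prokineticin receptor gene Prokr2 stood at 127 CPM in cFOS+ and 214 CPM in cFOS- cells (-0.75), with detection in 18 and 21 cells. The VIP receptor gene Vipr2 stood at 231.5 CPM in cFOS+ and 289.4 CPM in cFOS- cells (-0.32).

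Ion channel lists had small pooled medians, with single members apart, and 47.1% of all genes were higher. Of 15 sodium channel and NALCN leak genes, 11 were higher in cFOS+ cells, with a median log2 ratio of 0.09, but 6 of 15 with a median of -0.21 without the cells with microglia markers. Scn2b, an auxiliary sodium channel subunit, stood at 48.0 CPM in cFOS+ cells (interval 47.4 to 48.6) and 17.8 CPM in cFOS- cells (interval 17.4 to 18.1), with cell medians of 15.9 and 1.51 CPM. It was detected in 53 of 75 cFOS+ cells (interval 59.0 to 80.6%) and 38 of 80 cFOS- cells (interval 36.2 to 59.0%). Unc79, a subunit of the NALCN leak complex, stood at 82.4 CPM in cFOS+ and 37.5 CPM in cFOS- cells (1.12). Of 25 potassium channel genes, 13 were higher (median 0.02), and 8 of 24 without the cells with microglia markers (median -0.38). Among the 13 was the auxiliary subunit gene Kcnab1 at 25.7 CPM in cFOS+ and 3.31 CPM in cFOS- cells (2.63). The leak channel gene Kcnk2 was at 2.67 and 18.8 CPM (-2.44). Calcium and HCN channel genes had a median of -0.23, with 8 of 26 higher. Within them the ryanodine receptor gene Ryr1 stood at 0.164 CPM in cFOS+ and 16.1 CPM in cFOS- cells (-3.88).

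The glutamate receptor, GABA-A receptor and cAMP, calcium and CREB lists had small negative pooled medians that were positive among silent cells. Of all genes, 47.1% were higher pooled and 50.6% among silent cells. Of 22 glutamate receptor genes, 7 were higher in cFOS+ cells, with a median log2 ratio of -0.25, and 11 of 22 among silent cells, with a median of 0.03. The AMPA receptor subunit gene Gria3 stood at 8.85 CPM in cFOS+ and 65.1 CPM in cFOS- cells (-2.75), detected in 8 and 22 cells, while the NMDA receptor subunit gene Grin2c stood at 135 and 53.6 CPM (1.32). Gria2, the most abundant subunit gene, was at 512.8 CPM in cFOS+ and 471.5 CPM in cFOS- cells (0.12). Of 14 GABA-A receptor genes, 5 were higher (median -0.20), and 8 of 14 among silent cells (median 0.07). Of these genes Gabrq stood at 16.3 CPM in cFOS+ and 54.6 CPM in cFOS- cells (-1.69). Of 36 cAMP, calcium and CREB genes, 12 were higher (median -0.10, active -0.28), and 20 of 36 among silent cells (median 0.32). Creb1 itself stood at 7.86 CPM in cFOS+ and 30.4 CPM in cFOS- cells (-1.83), detected in 11 and 14 cells. Nos1, the neuronal nitric oxide synthase, stood at 51.9 CPM in cFOS+ and 2.27 CPM in cFOS- cells (4.01), detected in 10 and 3 cells. Transcription factors kept in SCN neurons had 8 of 19 higher (median -0.11, silent -0.08), and heat shock genes 6 of 18 (median -0.18, silent -0.28).

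Secretory and release genes were nearly level, and 47.1% of all genes were higher. Of 25 dense-core vesicle genes 15 were higher in cFOS+ cells (median log2 ratio 0.11), and of 24 synaptic vesicle release genes 13 were higher (median 0.01). Slc18a2, the vesicular monoamine transporter, stood apart at 17.8 CPM in cFOS+ and 81.8 CPM in cFOS- cells (-2.14), detected in 10 and 20 cells. Scg5, a chaperone of prohormone processing, stood at 948 CPM in cFOS+ and 727 CPM in cFOS- cells (0.38). GABA and glutamate identity genes had 6 of 11 higher (median 0.05), and sodium pump genes 3 of 6 (median 0.06).

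The study's title concerns a phosphate transporter in VIP neurons. Of 15 measured genes of phosphate transport and inositol pyrophosphates, 7 were higher in cFOS+ cells, near the 47.1% of all genes, with a median log2 ratio of -0.02. The importer gene Slc20a2 stood at 99.5 CPM in cFOS+ and 83.1 CPM in cFOS- cells (0.26), detected in 28 and 22 cells, with 0.60 among active and -0.22 among silent cells. The importer gene Slc20a1 stood at 140.9 CPM in cFOS+ and 132.3 CPM in cFOS- cells (0.09), and the exporter gene Xpr1 at 112 and 101 CPM (0.16). Over 16 ways of computing the ratio, the sign was that of the pooled value in 15 for Slc20a2, 14 for Slc20a1 and 9 for Xpr1. Those that change only the pseudocount or the minimum level cannot alter a sign and are counted as the same. The furthest apart was Ipmk, an inositol phosphate kinase gene, at 6.88 CPM in cFOS+ and 36.6 CPM in cFOS- cells (-2.26), detected in 5 and 13 cells.

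**Figure D4:**
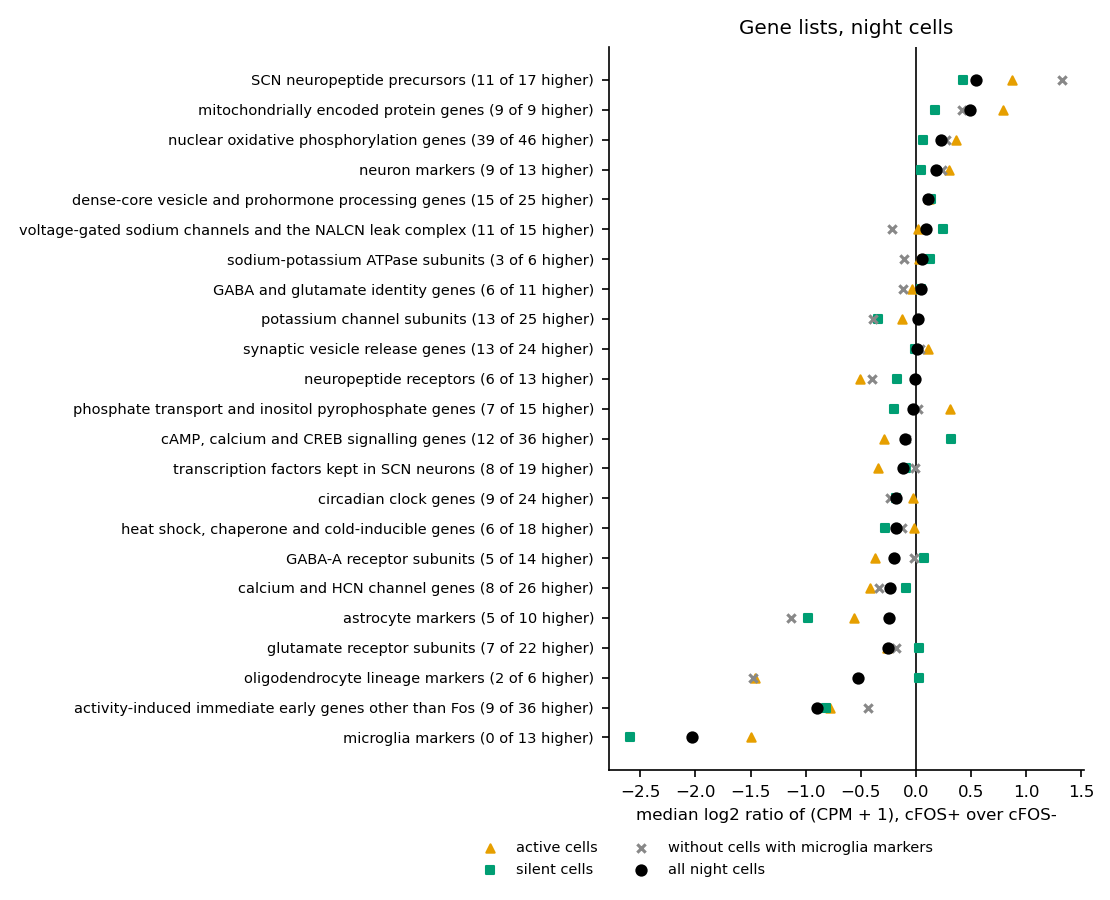
Median log2 ratio of (CPM + 1), cFOS+ over cFOS- cells, for each gene list with at least 5 measured members, pooled (black circles), among active cells (triangles), among silent cells (squares) and without cells with microglia markers (crosses, not drawn for the microglia list). Neuropeptide precursors (0.55) and mitochondrially encoded genes (0.49) lie furthest right, and immediate early genes (-0.89) and microglia markers (-2.03) furthest left.

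Genes were also named by ranking, whether or not they were list members. The ranking used the 3408 of 9846 genes (34.6%) that met every condition of the naming rule. The direction had to be the same pooled, in active cells, in silent cells and in the mean over cells. It also had to hold without the highest cell of each group and in the share of cells. Under the label with the higher level, a gene had to be detected in 10% of cells or more. This filter set a floor under the shares of that label given below. The smallest of the 5 ratios set the rank. The 12 genes ranked highest had pooled log2 ratios from 2.43 to 4.96 and were detected in 10.7 to 41.3% of cFOS+ and 1.25 to 12.5% of cFOS- cells. Cacna2d4, an auxiliary calcium channel subunit, stood at 99.7 CPM in cFOS+ and 2.24 CPM in cFOS- cells (4.96) and was detected in 11 and 2 cells, with 63.0% of the cFOS+ reads in 1 cell. Nos1, given above, was among them. Suv39h1 (X chromosome, 8061171 to 8074760), a histone H3 lysine methyltransferase of heterochromatin, was the most widely detected. It stood at 150 CPM in cFOS+ cells (interval 148 to 151) and 23.6 CPM in cFOS- cells (interval 23.19 to 24.01), a log2 ratio of 2.61, with 2.78 among active and 2.27 among silent cells. It was detected in 31 of 75 cFOS+ cells (41.3%, interval 30.1 to 53.3%) and in 9 of 80 cFOS- cells (11.3%, interval 5.28 to 20.3%). The others were Dclk3, Enpp4, Mtfr1, Pdcl, Smg8, Capn5, Ccdc77, Epn2, which encodes the endocytic adaptor epsin, and Ccl17, which encodes a chemokine.

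The 12 genes ranked lowest had log2 ratios from -4.66 to -3.48 and were detected in 0 to 18 of 75 cFOS+ and 8 to 25 of 80 cFOS- cells. Avpr1a and Nr4a3, given above, were among them. Sdc4, a cell surface proteoglycan, stood at 0.0836 CPM in cFOS+ and 20.4 CPM in cFOS- cells (-4.30), with 0 of 75 cFOS+ and 11 of 80 cFOS- cells expressing it; 0 of 75 allows a share of up to 4.80%. Tfb1m, a mitochondrial ribosomal RNA methyltransferase, stood at 0.352 CPM in cFOS+ and 28.9 CPM in cFOS- cells (-4.47), and Epha7, an ephrin receptor, at 2.85 and 59.6 CPM (-3.98). The others were Pign, Klhl42, Ccdc159, Accs, Lhfpl3, Nxn and Zcchc16. Each of these genes was detected in a minority of the cells of both groups.

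A second ranking used the difference in the share of expressing cells. Besides Scn2b, it named Pex7, an import receptor of peroxisomes (35 of 75 cFOS+ and 17 of 80 cFOS- cells), Nr2c2, Mbip, Ppm1a, Ormdl3, Faf1 and Dynlt1c as detected in more cFOS+ cells; Dynlt1c has near-identical paralogs, so its reads are uncertain. In the other direction Ccdc30 was detected in 34 of 75 cFOS+ cells (interval 33.8 to 57.3%) and 57 of 80 cFOS- cells (interval 60.0 to 80.8%). Exoc8, a subunit of the exocyst, was detected in 10 of 75 cFOS+ cells (interval 6.58 to 23.2%) and 30 of 80 cFOS- cells (interval 26.9 to 49.0%). Idh2, the mitochondrial isocitrate dehydrogenase, was found in 15 cFOS+ and 32 cFOS- cells, at 51.9 and 150 CPM (-1.51). Eid1, Qtrt1, Secisbp2l, Dnajc11 and Scpep1 completed the set. The genes were chosen from these values, so the values describe the choice and are no support for it.

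**Figure D5:**
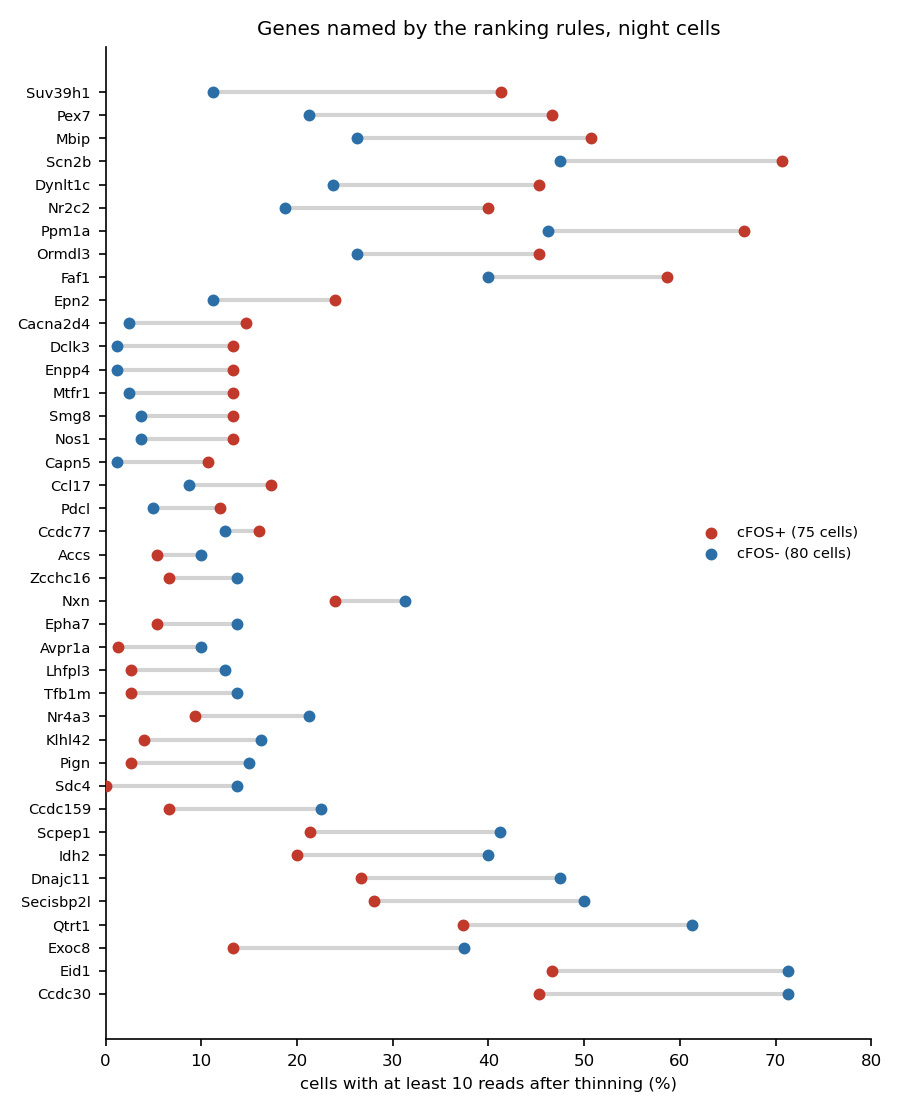
Share of cells with at least 10 reads after thinning, in cFOS+ (red) and cFOS- (blue) night cells, for the 40 genes named by both rankings, ordered by the difference between the groups. Suv39h1 has the widest gap to the right, at 41.3% of cFOS+ and 11.3% of cFOS- cells.

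The day cells carry the same labels and share no cell with the night cells; 68 were cFOS+ and 59 were cFOS-. Of the day cFOS+ cells 51 were active and 17 silent, and of the day cFOS- cells 27 were active and 32 silent. The pooled day ratios therefore mix the label with firing, unlike the nearly balanced night groups, and day values within a firing class are not given. The 40 genes named from the night cells had the same sign by day in 9 of 12 and 6 of 8 genes that were higher at night, and in 7 of 12 and 3 of 8 that were lower, while 48.5% of all genes were higher in day cFOS+ cells. Suv39h1 had a log2 ratio of 1.5999 by day and Epn2 of 1.67, but Cacna2d4 had -1.28, Scn2b -0.83, Nr4a3 0.88 and Avpr1a 0.28. Fos had -0.27 by day. Vip had 3.61 and Avp 0.38. Immediate early genes were higher in cFOS+ cells for 24 of 38 measured by day, with a median of 0.17, and microglia markers for 5 of 14, with a median of -0.22. By day 19 of 46 nuclear oxidative phosphorylation genes were higher, with a median of -0.08, and 7 of 9 mitochondrially encoded genes, with a median of 0.27. The medians of the immediate early and nuclear oxidative phosphorylation lists thus had the opposite sign by day, and that of the microglia list had the same sign at a smaller size. The difference between night and day was not tested.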

How the data were processed

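Single-cell libraries were made from patch pipette contents with the Nextera XT kit, per the labels' protocols. The authors deposited raw counts for 22800 genes in 298 cells, and a normalized signal. Each column of that signal was the counts over a single factor (298 of 298 columns, relative tolerance 1e-06), and it served as an alternative. STAR, DESeq2 and GRCm38.p4 are named in the submitters' processing notes, without roles. Annotation, strand use and molecular identifiers are not stated in these sources, so overlapping genes and paralogs may share reads. No cell was filtered beyond S70 and S71, and no doublet caller was run, since each library came from 1 pipette. The titles S253 and S253-2 share a number with opposite labels, but their profiles correlated at only 0.405 and both were kept.

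Counts were summed per label and scaled to CPM, with a pseudocount of 1 and a minimum average of 10 CPM (5 CPM for list members). The 155 cells had 3187057 to 25535298 reads. Shares used cells thinned at random to 3000000 reads. Named genes were the 12 highest and 12 lowest by the smallest ratio, the 8 highest and 8 lowest by share difference, Fos, Vip, Avp, Slc20a1, Slc20a2 and Xpr1, and for each list its top members by rank, with or without a single direction, and its most abundant member; 1 gene that these rules select is not reported here. The cells and the 25 lists were chosen with earlier results of these data known. The sequences, further list members, the limits for values to look at again and which lists count as main results were chosen after values were seen. Gene positions are from GENCODE M21 and promoter windows from RefSeq (GRCm38.p6). Python 3.11.15, numpy 2.4.6, pandas 2.3.3, scipy 1.17.1 and matplotlib 3.10.9 were used, and the calculation of the ratios was checked on simulated counts. Each simulated gene was spread over all cells, so the check does not cover genes carried by few cells.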

Additional observations from a re-analysis of the deposited data

Results flagged for a closer look

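The listed values differed in direction between firing classes or between night and day, and none of these differences was tested. By day the labels were unevenly divided between active and silent cells, so the day values mix label and firing. Kcnd2, a potassium channel gene, had a log2 ratio of 3.24 among active and -1.34 among silent cells, a difference of 4.57; 1 cell gave 70.1% of its cFOS+ reads. Trh, the precursor of thyrotropin-releasing hormone, had -1.36 among active and 1.48 among silent cells, a difference of -2.84, with 5 cFOS+ and 7 cFOS- cells at 100 CPM or more. The median log2 ratio of the immediate early genes other than Fos was -0.89 at night and 0.17 by day, a difference of -1.07. That of the neuropeptide precursors was 0.55 at night and -0.12 by day, a difference of 0.66.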

How the results depend on the processing

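No paired analysis was possible because the groups compared share only 1 cell number and no result comes from a test. Fos kept a negative log2 ratio in every alternative, with -0.43 for the mean of per-cell CPM, -0.56 without the highest cell of each group, -0.43 after thinning, -0.24 on the authors' normalized values, -0.58 with firing classes weighted equally, -0.21 without microglia-marker cells, -0.92 and -0.39 in the lower-numbered and higher-numbered cells, -0.60 with S70 and S71, -0.58 with depolarized cells, and -0.33 without cells at 100 CPM of Vip. It was -0.10 in 2 alternatives chosen after seeing the data, the mean over cells without microglia-marker cells and a limit of 10 CPM for those markers. The genes at least 2-fold higher in night cFOS+ cells numbered 1636 with no minimum, 376 at a minimum of 20 CPM, 1189 in lower-numbered cells, 1269 in higher-numbered cells and 1138 at the limit of 10 CPM of microglia markers. The genes at least 2-fold lower in night cFOS+ cells numbered 2199, 5.2e+02 (rounded), 1430, 1580 and 1539 in the same order. Microglia markers higher in cFOS+ cells numbered 1 with no minimum, 2 in lower-numbered and 1 in higher-numbered cells, and immediate early genes numbered 5 at a minimum of 20 CPM. With no minimum more genes enter, and in the other settings named fewer genes or cells enter. The cause of these moves was not tested further. The Vip log2 ratio was -0.40 in the higher-numbered cells. Among the ranked genes, Vip, Avp, Slc20a1, Slc20a2 and Xpr1, it was the only ratio of at least 2-fold that reversed. Other list members were not followed through the alternatives. Grp, given above, also changed sign without the microglia-marker cells. The immediate early median lay between -1.11 and -0.39 over 16 settings and that of the neuropeptides between 0.16 and 1.33. Of the 40 ranked genes, 39 kept their sign in all 16, the exception being Qtrt1 with 0.10 in the lower-numbered cells. The ranking had itself required the same sign in both firing classes, in the mean over cells and without the highest cell. A change of pseudocount or minimum cannot alter the sign of a gene. Much of this count was therefore fixed in advance and is no support for the genes. With 1 sample per label, no alternative measures differences between animals, and genes carried by few cells are limited by the number of cells and not by read depth.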
